A study of Mus musculus with 6 samples.

Results

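The miRNAs of the miR-10, miR-196 and miR-615 families are encoded inside the Hox gene clusters. Of their mature forms, 7 (mmu-miR-10a-5p, mmu-miR-10a-3p, mmu-miR-10b-5p, mmu-miR-10b-3p, mmu-miR-196a-5p, mmu-miR-196b-5p and mmu-miR-615-3p, written below without mmu) were picked by name from the 1907 mature mouse miRNAs counted by small RNA sequencing. The 6 libraries came from the embryonic stem cell (ESC) lines RB18 and RB20, both established from C57BL/6 mice in R2i medium with LIF and then kept in R2i or moved to serum or 2i for at least 10 passages, so each medium had 2 libraries, 1 per line. Each library was a pool of 3 cultures. All media held 1000 U/ml of the cytokine LIF. Serum medium contained 15% fetal bovine serum and no inhibitor. The 2i medium was serum free and contained 1 µM of the MEK inhibitor PD0325901 with 3 µM of the GSK3 inhibitor CHIR99021. The R2i medium was also serum free; beside 1 µM PD0325901 it contained SB431542, which blocks the TGF-β receptor, at 10 µM. Cells in 2i and R2i are said to be in the ground state. The serum and 2i cells descend from the R2i cells, so time in another medium cannot be told apart from the medium itself. Total miRNA counts were 1744187 and 2243369 in serum (RB18 and RB20), 2057602 and 3365676 in 2i, and 1041858 and 3593356 in R2i.

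Hox genes give each part of the embryo its position along the body axis, and they are kept largely silent in pluripotent cells until differentiation starts. The miRNAs between them are often transcribed together with their Hox neighbours and can in turn repress Hox mRNAs. A miRNA hairpin is cut into a 5p and a 3p arm, of which usually 1 is retained to guide silencing. Target choice depends mainly on the seed, bases 2 to 8 from the 5′ end of the mature miRNA. miR-10a and miR-10b belong to a family known to repress Hox genes, and miR-196 is known for directing cleavage of the Hoxb8 mRNA.

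The sequences of the 7 miRNAs show which reads can be told apart and which share targets. They are from RefSeq (GRCm38.p6), 5′ to 3′, with the seed in capitals.
miR-10a-5p: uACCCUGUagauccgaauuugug
miR-10b-5p: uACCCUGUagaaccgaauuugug
miR-10a-3p: cAAAUUCGuaucuaggggaaua
miR-10b-3p: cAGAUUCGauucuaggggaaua
miR-196a-5p: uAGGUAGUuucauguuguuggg
miR-196b-5p: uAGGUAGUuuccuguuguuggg
miR-615-3p: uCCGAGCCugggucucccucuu

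miR-10a-5p and miR-10b-5p had the same seed and matched at 22 of 23 bases, with the single difference U12A counted from the 5′ end of miR-10a-5p. Their 3p arms differed at 3 of 22 bases (A3G, U9A and A10U), and the first of these lies in the seed. miR-196a-5p and miR-196b-5p shared a seed and differed by A12C. Among 1623 mature mouse miRNAs with a sequence, the miR-10 seed occurred only in miR-10a-5p and miR-10b-5p, and the miR-196 seed only in miR-196a-5p and miR-196b-5p. The miR-615-3p seed occurred in 1 miRNA. The 7 bases of the miR-196 seed also stand in let-7a-5p, but there they begin at base 3 in place of base 2, so they are not the let-7 seed.

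The genes lie in all 4 Hox clusters (GRCm38). Mir10a (chr11:96317165-96317274, plus strand) is between Hoxb5 and Hoxb4, 992 bases from Hoxb4. Mir10b (chr2:74726070-74726137, plus strand) is in an intron of Hoxd3 and of Hoxd4. The mature miR-196a-5p comes from 2 genes with the same product: Mir196a-1 (chr11:96265164-96265265, plus strand) is 6191 bases from Hoxb9, whereas Mir196a-2 (chr15:102973350-102973434, plus strand) is between Hoxc10 and Hoxc9, in an intron of a noncoding Hoxc5 transcript. Mir196b (chr6:52230081-52230165, minus strand) overlaps noncoding transcripts of Hoxa9. Mir615 (chr15:103014910-103015001, plus strand) is in an intron of Hoxc5.

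**Figure D1:**
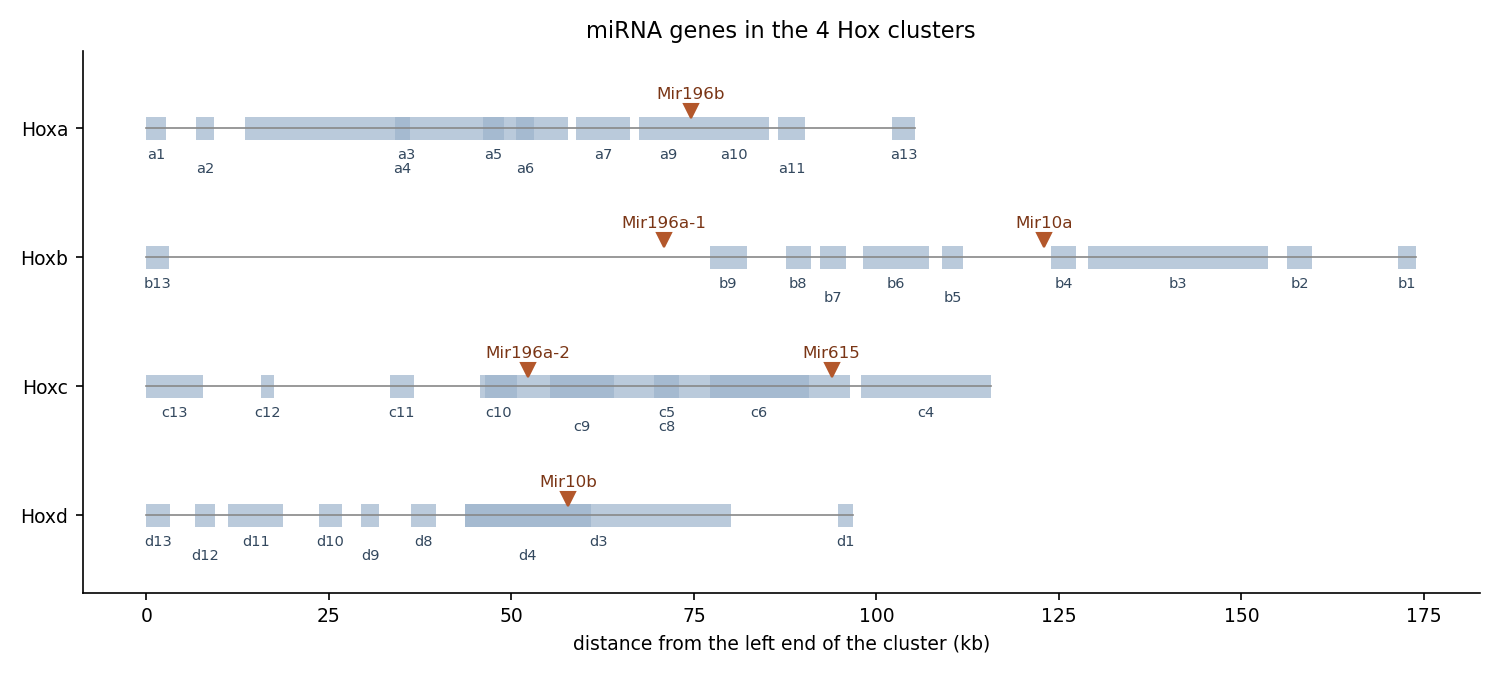
Map of the Hoxa, Hoxb, Hoxc and Hoxd clusters to scale, with the distance from the left end of each cluster in kb. Pale blocks are Hox genes, darker where annotated genes overlap, and triangles are the miRNA genes: Mir10a is 992 bases from Hoxb4, and the 2 genes for miR-196a-5p are in different clusters.

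The hairpins of both miR-10 genes are printed to place the arms, here in capitals.
Mir10a: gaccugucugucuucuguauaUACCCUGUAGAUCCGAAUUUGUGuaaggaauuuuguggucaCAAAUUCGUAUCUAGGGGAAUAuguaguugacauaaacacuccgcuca
Mir10b: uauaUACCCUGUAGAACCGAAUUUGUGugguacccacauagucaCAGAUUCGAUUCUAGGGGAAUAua

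The 7 miRNAs together took a small part of each library, between 0.0919% (2i, RB18) and 0.192% (R2i, RB20) of the total count. Levels are given as normalized CPM, counts scaled to a common library size (CPM) by the TMM method of edgeR. miR-10b-5p was the most abundant of the 7 in every library and ranked between 60 and 97 among all miRNAs of a library. miR-10a-5p came next in serum, followed by miR-196a-5p, but in 2i and in R2i the order of these 2 was the other way round. In R2i they came close in RB20, with 133.01 for miR-10a-5p and 149 for miR-196a-5p, but not in RB18, with 68.6 and 136. miR-196b-5p and miR-615-3p stayed between 2.92 and 15.0 in all 6 libraries, and in serum and R2i their ranges touched. The 3p arms of miR-10 were at or near 0. The filter on low counts kept 5 of the 7 miRNAs and left out miR-10a-3p and miR-10b-3p.

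**Figure D2:**
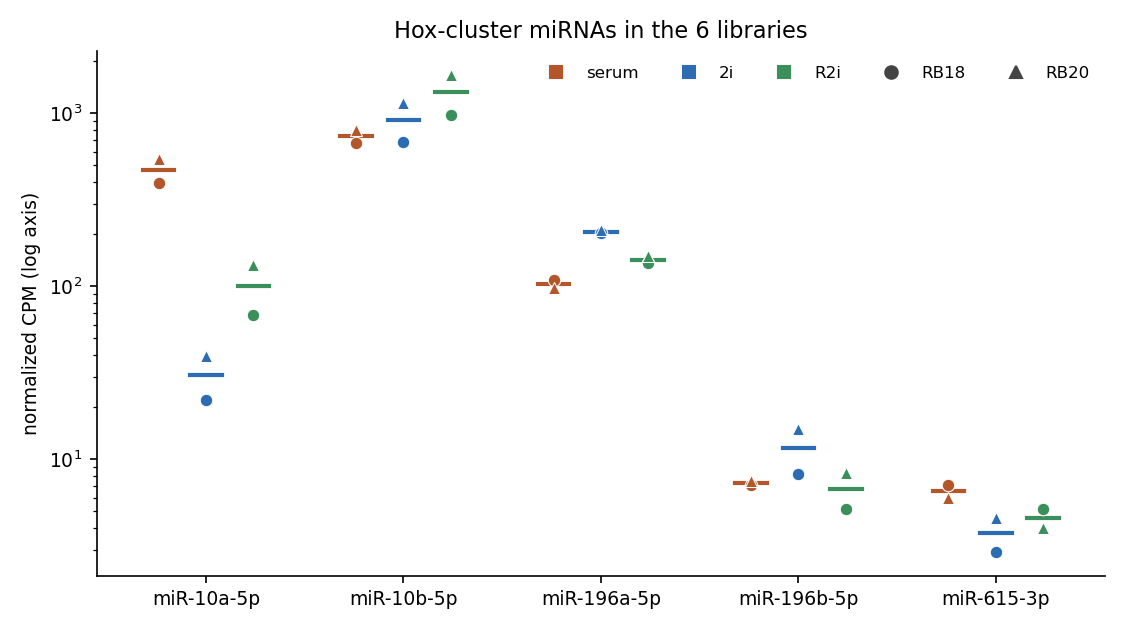
Normalized CPM (log axis) of the 5 miRNAs that passed the filter, in each library. Circles are RB18, triangles RB20 and horizontal bars the mean of the 2 libraries of a medium. miR-10a-5p fell from between 398 and 541 in serum to between 21.9 and 39.4 in 2i, whereas miR-10b-5p was between 676 and 1672 throughout.

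miR-10a-5p, which comes from the HoxB cluster, fell in both ground-state media. Serum gave 726 (RB18) and 1092 (RB20) counts, 2i gave 45 and 129, and R2i gave 80 and 465. As normalized CPM, serum stood at 398 and 541, 2i at 21.9 and 39.4, and R2i at 68.6 and 133.01. Both serum libraries were far above the other 4, both 2i libraries were below both R2i libraries, and the 3 media did not overlap. Its rank in the library was 115 and 107 for serum, 365 and 307 for 2i, and 247 and 187 for R2i. Mean and SD (n = 2 each) were 469 ± 102 for serum, 30.6 ± 12.4 for 2i and 101 ± 45.5 for R2i.

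The fall from serum to 2i was 15.1-fold (log2 fold change -3.92, standard error 0.45, adjusted p = 0.000215, edgeR), and only 10 of the 571 miRNAs tested had a lower log2 fold change. In R2i it was 4.60-fold (log2 fold change -2.20, standard error 0.41, adjusted p = 0.00324, edgeR). For the ground state (2i and R2i averaged) against serum, the log2 fold change was -3.06 (standard error 0.33, adjusted p = 0.000151, edgeR). These comparisons share the serum libraries. Within each line the direction was the same: miR-10a-5p fell by 4.12 (RB18) and 3.75 (RB20) on the log2 scale in 2i, and by 2.52 and 2.02 in R2i. The call in R2i was lost when serum RB20 (log2 fold change -2.02, adjusted p = 0.0135, edgeR) or R2i RB18 (-1.81, adjusted p = 0.0174, edgeR) was left out. In these bulk libraries, fewer cells with miR-10a-5p and less miR-10a-5p per cell cannot be told apart.

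Calls needed both an adjusted p below 0.01 and over 2-fold change. In 2i against serum, 1 of the 5 tested Hox-cluster miRNAs was called lower (miR-10a-5p), where 17.3% of all tested miRNAs were lower, and 1 was called higher (miR-196a-5p), where 16.8% were. In R2i against serum, 1 was called lower (miR-10a-5p; 15.6% of all tested). By edgeR, 0 were called higher in R2i, where 15.1% of all tested were, and DESeq2 and limma also gave 0; at an unadjusted p under 0.05 there was 1, miR-10b-5p. In the ground state against serum, 1 was called lower (miR-10a-5p; 20.0% of all tested). There 0 were called higher by edgeR, DESeq2 and limma, against 17.0% of all tested by edgeR, and 1 (miR-196a-5p) was higher at an unadjusted p under 0.05. With 5 miRNAs tested, these counts lie near the shares for all miRNAs. By log2 fold change, miR-10a-5p was the 58th lowest of the 571 in R2i and the 18th lowest in the ground state. The median log2 fold change of the 5 was 0.32 in 2i and -0.03 in R2i, beside -0.03 and -0.07 over all 571.

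**Figure D3:**
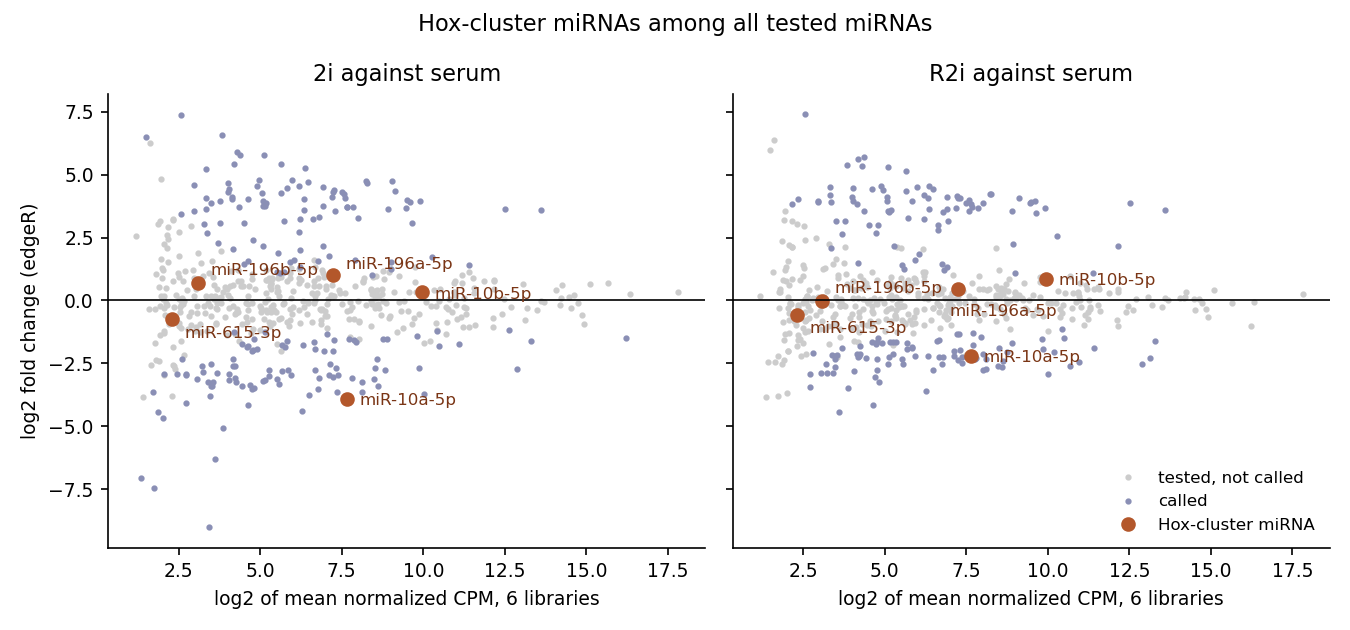
Log2 fold change (edgeR) against the log2 of the mean normalized CPM for the 571 tested miRNAs, in 2i against serum (left) and R2i against serum (right). Grey points were not called, blue points were called and large points are the Hox-cluster miRNAs; miR-10a-5p is at -3.92 and -2.20, and miR-10b-5p at 0.32 and 0.85.

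miR-10b-5p, which shares the seed of miR-10a-5p but comes from the HoxD cluster, did not fall. Serum gave 1234 (RB18) and 1605 (RB20) counts, 2i gave 1403 and 3769, and R2i gave 1144 and 5846. As normalized CPM, serum was at 676 and 796, 2i at 682 and 1151, and R2i at 981 and 1672. The 2i libraries overlapped the serum libraries, the R2i libraries were both above serum, and in each medium RB20 was above RB18. Means were 736 ± 84.8, 916 ± 332 and 1327 ± 489 (SD, n = 2 each). The log2 fold change was 0.32 in 2i (95% confidence interval -0.50 to 1.14, adjusted p = 0.491, edgeR) and 0.85 in R2i (0.03 to 1.68, adjusted p = 0.0925, edgeR). Neither was called, and the intervals with all libraries leave room for a rise of 2-fold in either medium but not for a fall of 2-fold. Without 2i RB20, the log2 fold change in 2i was -0.086.

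The ratio within the pair shifted in both lines. miR-10a-5p made up 37.0% (RB18; 95% Wilson interval 34.9 to 39.2) and 40.5% (RB20; 38.7 to 42.4) of the 2 miRNAs in serum. In 2i it made up 3.11% (2.33 to 4.13) and 3.31% (2.79 to 3.92), and in R2i 6.54% (5.28 to 8.06) and 7.37% (6.75 to 8.04). The lines gave close values within a medium and the 3 media did not overlap, in a measure that does not depend on how libraries are scaled. These intervals cover counting error only. The files hold counts and not reads, so how reads of this pair, which differ by U12A, were divided between them was not tested. In 2i RB18, miR-10b-5p reads counted as miR-10a-5p could make up at most the 45 reads, or 3.11% of the pair, that were counted as miR-10a-5p. This gives no limit for miR-10a-5p reads counted as miR-10b-5p.

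The sum over the shared miR-10 seed moved less than miR-10a-5p alone. For RB18 and RB20, it was 1073 and 1337 normalized CPM (serum), 704 and 1190 (2i), and 1050 and 1805 (R2i). The ranges of all 3 media overlapped, but within each line 2i was below serum, whereas R2i was just below serum in RB18 and above it in RB20. In serum there were 1.70 and 1.47 reads of miR-10b-5p for each read of miR-10a-5p, compared with 31.2 and 29.2 in 2i and 14.3 and 12.6 in R2i.

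**Figure D4:**
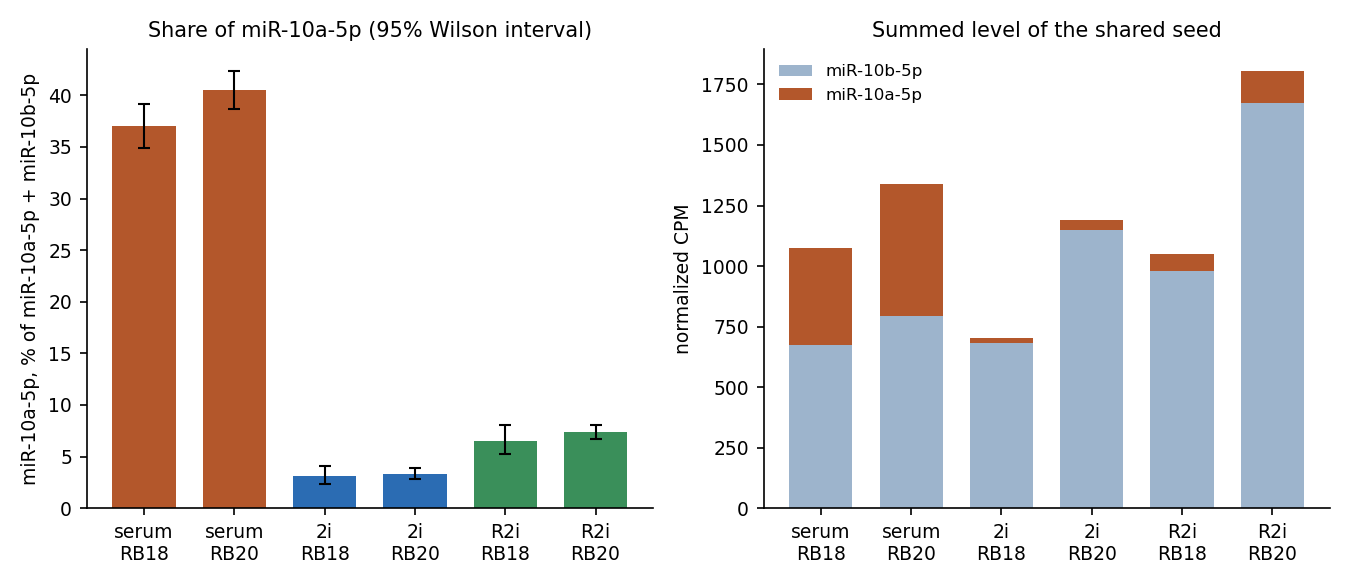
Left, miR-10a-5p as a percentage of the counts of miR-10a-5p and miR-10b-5p in each library, with 95% Wilson intervals; right, stacked normalized CPM of both in each library. The share was between 37.0% and 40.5% in serum and at most 7.37% in 2i and R2i, while the stacked level was between 704 and 1805.

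The 3p arms of both miR-10 hairpins were close to absent in every medium. miR-10a-3p had 3 counts in serum RB20 and 0 in the other 5 libraries. miR-10b-3p had between 0 and 7 counts, the highest in R2i RB20, the deepest library. A count of 3 was taken as the floor, and miR-10a-3p did not pass it in any library, so no fold change is given. The 5p arm made up 99.7% of the miR-10a hairpin's counts in serum RB20 (95% Wilson interval 99.2 to 99.9) and all of them elsewhere. For miR-10b it made up between 99.88% (serum RB20 and R2i RB20) and 100.0% (serum RB18). The 3p arms were therefore too rare to show whether they followed miR-10a-5p, which with 45 reads in 2i RB18 allows a 5p share as low as 92.1%.

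miR-196a-5p was the only Hox-cluster miRNA called higher. Serum gave 198 counts in RB18 and nearly as many in RB20, 2i gave 419 (RB18) and 690 (RB20), and R2i gave 158 and 520. As normalized CPM, serum was at 108 and 97.2, 2i at 204 and 211, and R2i at 136 and 149. Both 2i libraries were above both R2i libraries, which were above both serum libraries, with little spread between the lines. Mean and SD (n = 2 each) were 103 ± 7.96 for serum, 207 ± 5.00 for 2i and 142.1 ± 9.34 for R2i. The rise in 2i was 2.02-fold (log2 fold change 1.01, standard error 0.23, adjusted p = 0.00726, edgeR), just over the fold limit. With the cell line as a replicate block the log2 fold change was again 1.01 but the call was lost (adjusted p = 0.0147, edgeR). It was also lost without serum RB20, where the log2 fold change was 0.88 (adjusted p = 0.0256, edgeR), without either 2i library (adjusted p = 0.0297 without RB18 and 0.0503 without RB20, edgeR) and without either R2i library (adjusted p = 0.014 and 0.0156, edgeR). In R2i the log2 fold change was 0.47 (95% confidence interval -0.06 to 1.00, adjusted p = 0.135, edgeR), and for the ground state it was 0.74 (adjusted p = 0.0166, edgeR), so neither was called. Within the lines the log2 change in 2i was 0.90 (RB18) and 1.11 (RB20).

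The 5p arm is the same from both genes, but the 3p arms of Mir196a-1 and Mir196a-2 matched at only 5 of 22 bases, so reads of the 3p arms can be assigned to a gene.
miR-196a-1-3p: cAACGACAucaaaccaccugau
miR-196a-2-3p: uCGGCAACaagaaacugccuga
miR-196a-1-3p, from the HoxB cluster, had 14 and 4 counts (serum), 27 and 31 (2i), and 8 and 24 (R2i). miR-196a-2-3p, from the HoxC cluster, had 1 and 2 counts in 2i and 0 in the other 4 libraries. So where a 3p arm was seen, between 93.9% and 100% of its counts were from Mir196a-1, although in serum RB20 only 4 counts stood behind that share (95% Wilson interval 51.0 to 100.0%). How stably each 3p arm is kept after cutting was not measured, so these counts do not give the output of each gene. The change of miR-196a-1-3p in 2i was not called (log2 fold change 1.23, standard error 0.58, adjusted p = 0.115, edgeR).

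miR-196b-5p, which carries the same seed as miR-196a-5p but lies in HoxA, was much rarer. Its counts were 13 and 15 (serum), 17 and 49 (2i), and 6 and 29 (R2i), or 7.12 and 7.44, 8.26 and 15.0, and 5.15 and 8.30 normalized CPM. Serum lay inside the R2i range, and both 2i libraries were above both serum libraries, RB18 by little. The log2 fold change was 0.70 in 2i (95% confidence interval -0.35 to 1.75, adjusted p = 0.228, edgeR) against -0.03 for R2i (adjusted p = 0.963, standard error 0.49, edgeR), and the sign for R2i turned when library totals replaced TMM (0.04). miR-196a-5p made up between 92.9% and 96.3% of the 2 in all 6 libraries, so the sum over the miR-196 seed followed miR-196a-5p: 116 and 105 normalized CPM (serum), 212 and 226 (2i), and 141 and 157 (R2i). The other arm, miR-196b-3p, had 0 counts in all 6 libraries.

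miR-615-3p, encoded in the Hoxc5 intron, was the rarest of the 5 on average. Its counts were 13 and 12 (serum), 6 and 15 (2i), and 6 and 14 (R2i), which gave 7.12 and 5.95, 2.92 and 4.58, and 5.15 and 4.01 normalized CPM. Serum was above both other media in every library, but the R2i and 2i ranges overlapped. The log2 fold change was -0.75 in 2i (95% confidence interval -1.92 to 0.42, adjusted p = 0.243, edgeR) and -0.56 in R2i (-1.75 to 0.63, adjusted p = 0.424, edgeR). At 6 to 15 counts a library, a fall of 2-fold lay within both intervals. The 5p arm of the same hairpin had between 0 and 2 counts.

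**Figure D5:**
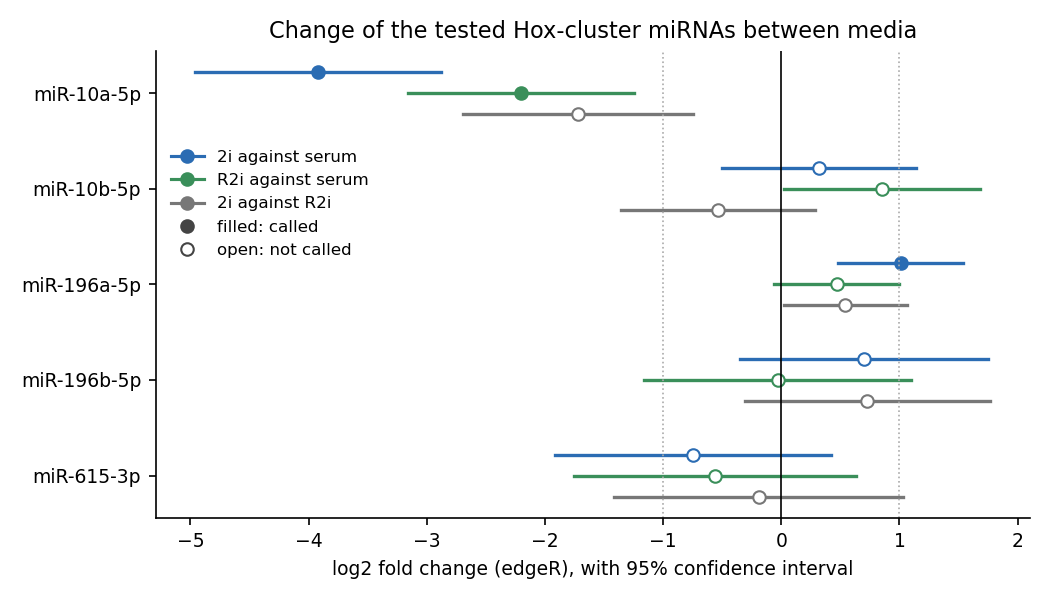
Log2 fold change (edgeR) of the 5 tested Hox-cluster miRNAs with 95% confidence intervals, for 2i against serum, R2i against serum and 2i against R2i. Filled points were called and dotted lines mark 2-fold; only miR-10a-5p (both serum comparisons) and miR-196a-5p (2i) have filled points, and the interval of miR-10a-5p in 2i runs from -4.96 to -2.88.

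The 2 ground-state media differ in their second inhibitor, which acts on GSK3 in 2i and on the TGF-β receptor in R2i. Between them 0 of the 5 miRNAs were called by edgeR, where 0.350% of all tested miRNAs were; DESeq2 called 1 (miR-10a-5p), limma 0, and 2 (miR-10a-5p and miR-196a-5p) had an unadjusted p under 0.05. miR-10a-5p was lower in 2i than in R2i in both lines, by 1.61 (RB18) and 1.73 (RB20) log2 units. The fitted difference was -1.72 (95% confidence interval -2.69 to -0.75, adjusted p = 0.112, edgeR), and with DESeq2 it was -1.76 and passed (adjusted p = 0.000576). It was the 12th lowest of the 571. miR-196a-5p had the opposite sign, 0.54 (95% confidence interval 0.02 to 1.06, adjusted p = 0.26, edgeR), and miR-10b-5p was at -0.53 (-1.36 to 0.29, adjusted p = 0.464, edgeR).

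miR-99a, miR-99b and miR-100 are the relatives of miR-10 outside the Hox clusters, and their sequences are shown because they differ from miR-10 inside the seed.
miR-99a-5p: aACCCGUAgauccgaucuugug
miR-99b-5p: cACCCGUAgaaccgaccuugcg
miR-100-5p: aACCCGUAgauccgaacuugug
With base 6 of miR-10a-5p left out, miR-100-5p matched it at 20 of 22 bases and miR-99b-5p at 17 of 22. Because that base is in the seed, the miR-99/100 seed (3 miRNAs) is not the miR-10 seed. miR-99b-5p was at 5742 and 3585 normalized CPM (serum), 2417 and 2019 (2i), and 965 and 1577 (R2i), so it was above every miR-10 library in serum and 2i but not in R2i. It fell in R2i (log2 fold change -1.87, standard error 0.34, adjusted p = 0.00287, edgeR), whereas its 2i value of -1.07 was not called (adjusted p = 0.0292, edgeR). Its 3p arm was called lower in both media, at -1.65 in R2i (adjusted p = 0.00224, edgeR) and -1.27 in 2i (adjusted p = 0.00613, edgeR). Of the 6 arms of these relatives, 4 were tested; 1 was called lower in 2i, where 17.3% of all tested miRNAs were, and 2 in R2i, where 15.6% were. Their median log2 fold change was -0.74 in 2i and -0.47 in R2i, beside -0.03 and -0.07 over all 571, and for miR-99a-5p and miR-100-5p the standard errors were between 1.24 and 1.45. Unlike miR-10a-5p, miR-99b-5p was lower in R2i than in 2i (2i against R2i 0.80, adjusted p = 0.26, edgeR, not called).

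The miRNAs whose profiles over the 6 libraries were closest to miR-10a-5p were miR-669h-5p, miR-669l-5p, miR-466d-3p, miR-466d-5p and miR-669c-5p. Profiles were log2(normalized CPM + 1), centred on their mean, and the root mean square difference was between 0.38 and 0.48 log2 units. Being chosen for this likeness, they fell as miR-10a-5p did, for example miR-669c-5p, whose normalized CPM (mean and SD, n = 2 each) was 916 ± 280 for serum, 86.3 ± 0.28 for 2i and 174 ± 2.78 for R2i. For miR-10b-5p the closest were miR-192-5p, miR-130b-3p, miR-93-3p, miR-708-5p and let-7a-5p, at 0.25 to 0.32 log2 units. By the same measure miR-10a-5p and miR-10b-5p were 1.78 log2 units apart.

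The ESC label was checked against a list of 6 of the 3p arms of the miR-290 to miR-295-3p cluster, which is highly expressed in mouse ESCs. All 6 were present in every library and summed to between 264500 and 344800 normalized CPM, led by miR-295-3p. Their median log2 fold change was -0.10 in 2i and -0.12 in R2i, and 0 of 6 were called by edgeR, DESeq2 or limma, with 1 lower in 2i at an unadjusted p under 0.05. The list left out another 3p arm of the cluster, miR-291b-3p. It was higher in 2i (log2 fold change 0.76, adjusted p = 0.0177, edgeR) and at 0.31 in R2i (adjusted p = 0.283, edgeR), and was not called. Of all tested miRNAs, edgeR called 17.3% lower and 16.8% higher in 2i, and 15.6% lower and 15.1% higher in R2i, so a list of this size has few calls to expect. The 7 Hox-cluster miRNAs together reached 1968 at most.

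Serum cultures can hold differentiating cells, so miRNAs of other cell types were read beside miR-10a-5p. Of 7 muscle miRNAs 4 were tested, and 3 were called lower in both 2i and R2i, as miR-10a-5p was (17.3% and 15.6% of all tested). miR-1a-3p had 52 and 55 counts (serum), 0 and 0 (2i), and 7 and 9 (R2i). miR-133a-3p had 93 and 36, 1 and 1, and 2 and 5, and miR-208b-3p had 165 and 86, 15 and 3, and 5 and 12. Like miR-10a-5p, these 3 were highest in both serum libraries. Without their serum counts, miR-1a-3p and miR-133a-3p would not have passed the filter on low counts. A miRNA this rare in 2i and R2i could be tested only if it was higher in serum. The count of 3 of 4 called lower therefore follows in part from the filter, and nothing is concluded from setting it beside the shares of all tested. The most abundant of the list over the 6 libraries together, miR-499-5p, went the other way and was called higher in both media, with 29 and 33 counts (serum), 296 and 521 (2i), and 95 and 612 (R2i). The list summed to 188 and 109 normalized CPM (serum), 152 and 161 (2i), and 95.2 and 184 (R2i), and miR-133b-3p and miR-206-3p had 3 counts or fewer in all 6 libraries. Whether the cells that held them also held miR-10a-5p was not tested.

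The mesenchymal list (arms of miR-143, miR-145a, miR-199 and miR-214) summed to 1448 and 2063 normalized CPM (serum), 3352 and 3677 (2i), and 2429 and 2445 (R2i), and most of it was miR-143-3p. By edgeR 0 of its 6 tested miRNAs were called in 2i or R2i (higher: 16.8% and 15.1% of all tested; lower: 17.3% and 15.6%), DESeq2 called 2 higher in 2i and 1 in R2i, limma 1 and 0, and 2 and 1 were higher at an unadjusted p under 0.05. miR-214-5p was at 0 in all libraries but R2i RB20. In the blood and endothelial list, 7 of 8 were tested: miR-451a was called higher in both media, and miR-142a-5p, the most abundant over the 6 libraries together but not in either R2i library, was called lower in R2i (15.1% of all tested were higher there and 15.6% lower). miR-451a had 0 and 3 counts (serum), 26 and 27 (2i), and 22 and 66 (R2i), so serum did not pass the floor of 3. It passed the filter on low counts only through 2i and R2i, and nothing is concluded from its call. In R2i, DESeq2 called 2 of the list lower and limma 1, and 3 were lower at an unadjusted p under 0.05. That list summed to 3887 and 4450 (serum), 5875 and 2873 (2i), and 2275 and 1543 (R2i), with miR-223-3p at 0 throughout.

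The neural list, in which miR-124-3p was the most abundant over the 6 libraries together but miR-128-3p had more counts in 4 of them, summed to between 791 and 1104 normalized CPM, and 0 of 5 tested miRNAs were called by edgeR or limma (in 2i, edgeR called 17.3% of all tested lower and 16.8% higher), although DESeq2 called 1 lower in 2i; at an unadjusted p under 0.05, 1 was lower in 2i and 0 in R2i. The endoderm and liver list, led by miR-192-5p, summed to between 1413 and 2474, with 0 of 3 called by edgeR, DESeq2 or limma (beside the same shares of all tested) and 1 lower in 2i at an unadjusted p under 0.05; miR-122-5p and miR-215-5p were at 0 in R2i RB18. The part of these cell types in the miR-10a-5p result was not tested. RB18 was the shallower library in every medium, so line and depth cannot be told apart.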

How the data were processed

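Small RNA libraries of 2 mouse ESC lines in 3 media were analysed (6 libraries). The authors deposited whole-number counts of reads per mature miRNA, without normalization, and log2 values, which the authors derived from those counts with 1 size factor per library. The submitters' processing notes name FastQC 0.11.5, cutadapt 1.3, Bowtie 1.1.2, featureCounts 1.5 and build mm10. How reads that match several miRNAs were counted is not given in the sources used here. Counts were tested with edgeR 4.0.16 (TMM, filterByExpr at 10 counts per library and 15 in total, quasi-likelihood test, 1 coefficient per medium, Benjamini-Hochberg adjustment over 571 miRNAs). Standard errors are the log2 fold change over the square root of F. Each medium had 2 libraries, too few for a permutation test to reach 0.05, so p-values rest on the spread shared between miRNAs (biological coefficient of variation 24.6%). Changes within a line are differences of log2(normalized CPM + 1). The test was run on simulated counts with known changes, in which all miRNAs had the same spread. That simulation cannot show how often calls are wrong where the spread differs between miRNAs. Alternatives were DESeq2 1.42.0, limma 3.58.1 on the log2 values, library totals, other filters and limits, the replicate block, and fewer libraries. The lines pair the libraries by design; the RB20 minus RB18 differences of 571 miRNAs correlated at 0.21 (serum with 2i), 0.248 (2i with R2i) and -0.128 (serum with R2i). The miRNAs and lists were chosen with earlier results of these data known. Named are all 7 miRNAs, listed miRNAs that were called or the most abundant of their list, and the 5 closest profiles; other names were chosen after their values were seen. Gene positions are from GENCODE M21 (GRCm38).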

Additional observations from a re-analysis of the deposited data

Results flagged for a closer look

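A few results went in opposite directions in the 2 lines, each with 1 library per line and medium, so the difference between the lines was not tested. For miR-196b-5p, R2i minus serum was -0.40 in RB18 and 0.14 in RB20 on the log2 scale, a gap of 0.54. For miR-615-3p, 2i minus R2i was -0.65 in RB18 and 0.16 in RB20, a gap of 0.81. Both rest on 6 to 29 counts in the libraries compared. For miR-196a-1-3p, R2i minus serum was -0.14 in RB18 and 1.40 in RB20, a gap of 1.54, with 4 counts in serum RB20. Of all 571 tested miRNAs, 22.1% had opposite signs in the lines for R2i minus serum and 28.2% for 2i minus R2i.

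The relatives miR-99a-5p and miR-100-5p differed between the lines by much more. miR-100-5p had 32 counts in serum RB18, 11 in 2i RB18 and 401 in R2i RB18, but 694, 865 and 873 in RB20. R2i minus serum was 4.22 in RB18 and -0.46 in RB20 (gap -4.68), and 2i minus R2i was -5.76 and 0.08 (gap 5.85). miR-99a-5p had 3, 0 and 37 counts in RB18 and 52, 68 and 64 in RB20, with R2i minus serum at 3.63 and -0.47 (gap -4.10) and 2i minus R2i at -5.03 and 0.17 (gap 5.21); with RB18 at 3 and 0 counts, the sizes of these differences depend on the added 1 CPM. The serum and 2i libraries of RB18 were thus low in both, and miR-10a-5p and miR-10b-5p showed no such gap.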

How the results depend on the processing

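The fall of miR-10a-5p in 2i and in the ground state was called under every alternative, with log2 fold changes between -4.40 and -3.53 and between -3.34 and -2.84. In R2i it ran from -2.77 to -1.81 with 1 library left out, and the number of miRNAs called ran from 0 to 1, since the call was lost without serum RB20 (-2.02) or R2i RB18 (-1.81); adjusted p ran from 5.83e-10 to 0.0174 over all alternatives. Between 2i and R2i, DESeq2 (-1.76) and edgeR without a filter (-1.69) called miR-10a-5p, so 1 miRNA was called in place of 0; with 1 library left out it ran from -2.21 to -1.13 and was not called. miR-10b-5p was called under no alternative; in 2i it ran from -0.086 (without 2i RB20) to 0.69 with 1 library left out, and in R2i from 0.42 (without R2i RB20) to 1.19 (without R2i RB18; adjusted p from 0.021 to 0.505 over all alternatives). In 2i against serum the count of 2 fell to 1 with the replicate block, with only the libraries of the media compared, and in 5 of 6 fits with 1 library left out (1 to 2), because miR-196a-5p was lost (adjusted p from 0.00321 to 0.0503 over all alternatives). The block changed no other call of the 5 tested Hox-cluster miRNAs; of all 571 it called 177 in place of 195 in 2i and 155 in place of 175 in R2i, and the listed miRNAs were not compared. With the lines of R2i exchanged in the replicate block, chosen after seeing the data, the counts were 1, 1, 1 and 0. miR-196b-5p in R2i turned to 0.038 with library totals, to 0.11 with only the media compared, and ran from -0.49 to 0.19 with 1 library left out (0.03 without serum RB18). In 2i against serum miR-196b-5p ran from 0.21 (without 2i RB20) to 1.07 (without 2i RB18) with 1 library left out. In 2i against R2i, with 1 library left out, miR-615-3p ran from -0.58 to 0.072 and miR-10b-5p from -0.95 to -0.08. The cause was not tested. Library totals moved the median of all 571 in R2i from -0.07 to 0.03; relative to it, miR-10a-5p was at -2.13 with TMM and -2.15 with library totals. Shares pooled over lines (39.0%, 3.25% and 7.23% for miR-10a-5p) moved past their interval for single lines at 37.0%, 40.5% and 6.54%; so did the 5p shares of miR-10a and miR-10b in serum RB18 (100.0%) and the miR-196a-5p share in 2i RB18 (96.1%). Levels of the Hox-cluster miRNAs moved by less than 1 SD with library totals or the deposited normalized values, and levels of other miRNAs were not compared. Where 1 library was left, it was assumed to vary like the others. At 3 counts or fewer (miR-10a-3p), depth allows no comparison.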
